A study of Mus musculus with 4 samples.

Results

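The data cover the messenger RNAs of the laminin chains, nidogens and perlecan, the proteins from which the basement membrane of a muscle fibre is built. The members are all probe sets that the platform's gene table assigns to a single one of 10 gene symbols, namely Lama1, Lama2, Lama4, Lama5, Lamb1, Lamb2, Lamc1, Nid1, Nid2 and Hspg2. These are 14 of the 12488 probe sets on the array. They were taken by gene name and not by signal, though the genes were chosen with earlier results of these data known. A probe set is a group of short probes on the array that together give 1 signal for 1 transcript. Lama4, Lama5, Lamb1 and Lamc1 had 2 probe sets each and the other genes had 1.

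The series, titled for the neuromuscular junction, holds 4 arrays of total RNA from murine skeletal muscle. The titles code 2 arrays as J (replicates 1a and 1c) and 2 as NJ (replicates 1a and 1d). All 4 titles also carry the code Ctr and a time of 0 h, and none of these codes is spelled out in the labels. No strain, genotype, age, sex or treatment is stated, and the labels do not say whether the arrays represent different animals, so differences between arrays of 1 group may be technical.

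Laminins are trimers of 1 alpha, 1 beta and 1 gamma chain, many of them cross-shaped. Many assemble into a sheet on the cell surface, held there by integrins and dystroglycan. Nidogens bridge the laminin sheet to the collagen IV network, and perlecan, a heparan sulfate proteoglycan, binds both and anchors acetylcholinesterase at the synapse. Along most of a muscle fibre the chains are alpha2, beta1 and gamma1, whereas the synaptic cleft also holds alpha4, alpha5 and beta2. Muscle fibres are not their only source, since Schwann cells, endothelium, pericytes and fibroblasts of the tissue also make laminin chains.

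RefSeq's promoter table (GRCm38.p6) held 6 of the 10 genes, and the 250 bases before the annotated start were searched for motifs on both strands. The N-box, CCGGAA, is an element described in promoters of genes that muscle nuclei under the synapse transcribe, and it was found in 1 of the 6 (Nid1) and in 12% of all 32851 promoter windows of that length. The E-box, CANNTG, is the element of myogenic factors, reads alike on both strands, and was found in 4 of the 6 and in 66.2% of all windows. Both motifs are short and describe only the letters in these windows. The 3 sequences below are shown because Lama2 had a difference with non-overlapping groups at its only probe set, Lamb2 is the synaptic beta chain, and Nid1 had the N-box; capitals mark the E-box in the first 2 and the N-box in the last. They are written 5′ to 3′ on the strand of the gene and end at the base before the start, at chr10:27616943-27617192 (minus strand), chr9:108479612-108479861 (plus strand) and chr13:13437352-13437601 (plus strand).
Lama2: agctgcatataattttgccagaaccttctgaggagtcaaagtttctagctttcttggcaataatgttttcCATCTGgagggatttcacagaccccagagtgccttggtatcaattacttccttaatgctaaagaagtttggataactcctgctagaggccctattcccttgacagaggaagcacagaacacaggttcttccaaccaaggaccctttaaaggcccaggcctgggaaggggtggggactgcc
Lamb2: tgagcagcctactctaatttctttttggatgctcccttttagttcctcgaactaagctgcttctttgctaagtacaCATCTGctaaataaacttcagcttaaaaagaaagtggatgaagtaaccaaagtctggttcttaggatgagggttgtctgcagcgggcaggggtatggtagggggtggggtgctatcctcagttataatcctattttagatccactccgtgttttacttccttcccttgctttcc
Nid1: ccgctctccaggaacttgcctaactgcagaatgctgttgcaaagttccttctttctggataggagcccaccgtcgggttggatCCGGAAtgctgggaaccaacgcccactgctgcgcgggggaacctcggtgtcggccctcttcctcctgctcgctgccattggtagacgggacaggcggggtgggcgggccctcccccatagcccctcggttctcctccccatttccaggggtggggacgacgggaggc
The E-box of Lama2 began 180 bases before the start and that of Lamb2 174 bases before it, and both read CATCTG. The N-box of Nid1 began 167 bases before the start.

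Of 8 markers of muscle fibres 7 were bright enough to test, but array J 1c stood apart. Summed over the 8 markers, the deposited signal was 168234 on J 1c and 539317 to 824508 on the other 3 arrays, and the brightest probe set reached 41086 on J 1c against 125534 to 238288. Arrays J 1a and NJ 1a are deposited with full digits and J 1c and NJ 1d with 1 decimal. This number format puts 1 J and 1 NJ array in each class and was treated as a possible batch. J 1a and NJ 1a are called the full-digit arrays below and J 1c and NJ 1d the rounded arrays. Without J 1c or J 1a the J group is a single array, so the SE and p then rest on the NJ arrays and the variance trend and assume that J varies alike.

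Lama2, which encodes the alpha chain of the fibre's own basement membrane, had both J arrays well above both NJ arrays and, with all 4 arrays and the pseudocount of 32, the largest difference of the family. With a pseudocount of 1 it was 1.59 against 1.60 for a probe set of Lama5, and without J 1c or NJ 1d that probe set was also the higher one, at 1.77 against 1.74 and 2.36 against 1.93. Lama5 and Lamc1 also had both J values above both NJ values, each at 1 of their 2 probe sets. Lama1 and perlecan (Hspg2) lay lower in J by their means, with arrays that overlapped. In size, Lama1 exceeded Lama2 without J 1c, at −1.80 against 1.74, and Hspg2 did so without NJ 1a, at −1.55 against 1.15. No member passed the test over all probe sets. Differences are given as J minus NJ in log2(signal + 32) after quantile normalisation, with the standard error (SE) from limma (n = 2 arrays per group), a scale that understates the change of dim probe sets. In total RNA of a tissue, fewer cells of a type and less RNA per cell cannot be told apart. What material J and NJ stand for is not spelled out in the labels.

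Of the 14 probe sets, 12 were bright enough to be tested, and the dimmer Lama4 probe set and the only Nid2 probe set were not. By their differences, 7 of the 12 were higher in J and 5 were lower. Their median was 0.15, beside 49.3% higher and a median of −0.01 over all 9316 probe sets tested. In limma, 0 members passed at a Benjamini-Hochberg adjusted p under 0.05, where 0% of all probe sets were called in either direction. At an unadjusted p under 0.05 limma gave 1 member higher in J (Lama2) and 0 lower, beside 1.26% and 0.88% of all probe sets. For 3 of the 12 the J values exceeded both NJ values, beside 13.6% of all, and for 0 of the 12 they were under both, beside 12.8% of all. With 2 arrays per group the smallest two-sided p of an exact permutation test is 0.333.

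**Figure D1:**
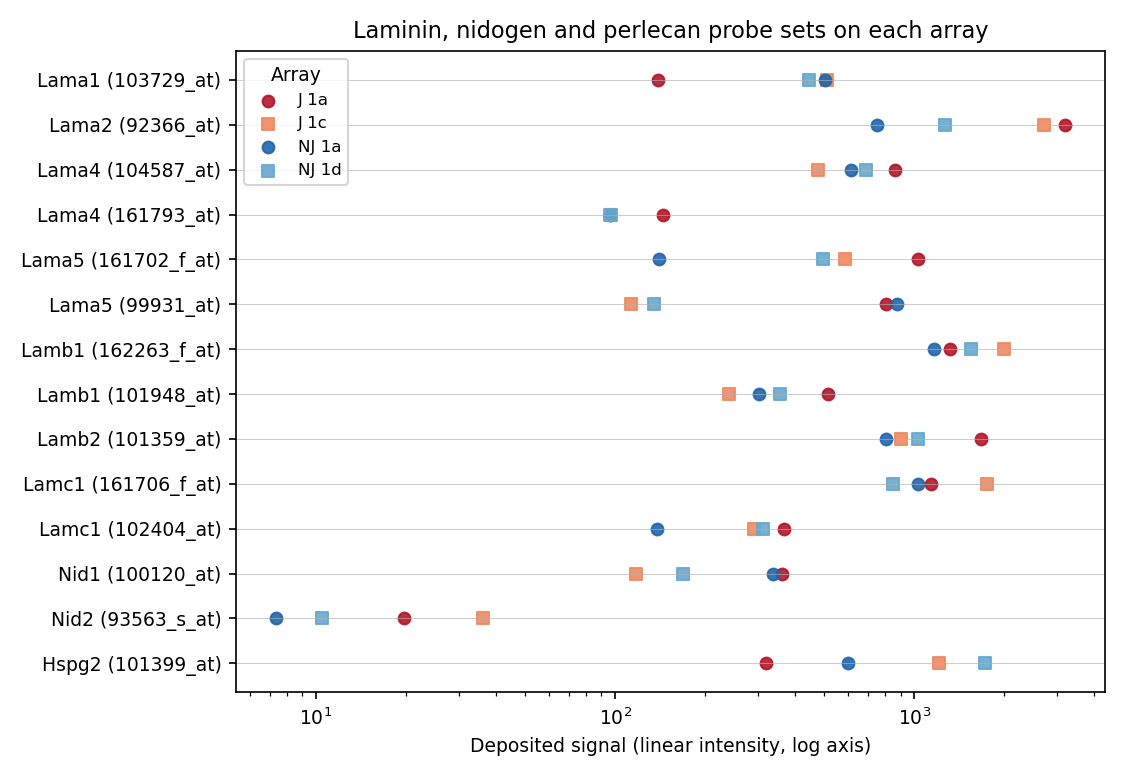
Deposited signal (linear intensity on a log axis) of each of the 14 member probe sets, with 1 point per array, J in red tones and NJ in blue tones. Both J points of Lama2, at 2716 and 3200.2, lie above both NJ points, at 751 and 1272, whereas most other members mix the groups.

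Among the alpha chains, Lama2 had signals of 3200.2 on J 1a and 2716 on J 1c against 751 on NJ 1a and 1272 on NJ 1d. The groups did not overlap, and the gap between them on the log2 scale was wider than the range within either group. The group levels were 11.54 ± 0.27 in J and 9.98 ± 0.59 in NJ (SD, n = 2), a difference of 1.56 ± 0.45 or 2.95-fold. Its 95% interval in limma ran from 0.54 to 2.58, and the interval of every other tested member contained 0. It ranked 13 of 9316 by unadjusted p and had a limma adjusted p of 0.999. In limma without the variance trend its SE was 0.57 and its unadjusted p 0.032, against 0.0068 with the trend. The difference was 2.17 on the full-digit arrays and 0.95 on the rounded ones, and 1.74 ± 0.52 without J 1c.

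Lama5 encodes an alpha chain found at the synapse and in vessel walls, and its 2 probe sets disagreed. At 161702_f_at the signals were 1027 on J 1a and 588 on J 1c against 140.0 on NJ 1a and 497 on NJ 1d. The groups did not overlap, though J 1c and NJ 1d lay close together. The difference of 1.46 ± 0.81 (limma, adjusted p = 0.999) was 2.76 on the full-digit arrays and 0.15 on the rounded ones, and 0.51 without NJ 1a, the array with the low signal. At 99931_at the signals were 803 on J 1a and 113 on J 1c against 874 on NJ 1a and 135 on NJ 1d. Both full-digit arrays were bright and the rounded ones dim, whatever the group. The difference was −0.20 ± 1.03, with −0.12 on the full-digit arrays and −0.28 on the rounded ones, and it was 0.94 without J 1c and 0.91 without NJ 1a.

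Lama4, a chain of vessels and of the synaptic cleft, differed little between the groups. Its brighter probe set had signals of 863 on J 1a and 478 on J 1c against 615 on NJ 1a and 692 on NJ 1d, so that the NJ values lay between the J values. The difference was −0.02 ± 0.59, made of 0.48 on the full-digit arrays and −0.52 on the rounded ones, and it was 0.32 without J 1c and 0.13 without NJ 1d. The dimmer one, with 144 on J 1a and 95.9 on J 1c against 96.0 on NJ 1a and 96.7 on NJ 1d, lay under the brightness filter. Lama1, an alpha chain of early embryonic and epithelial basement membranes, had signals of 139 on J 1a and 509 on J 1c against 504 on NJ 1a and 445 on NJ 1d. Only J 1a was low, and J 1c was the highest of the 4. The difference was −0.84 ± 0.85, with −1.80 on the full-digit arrays and 0.11 on the rounded ones, and it was −1.80 ± 0.82 without J 1c and 0.14 without J 1a.

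The differences of both beta chains were smaller than their SE. Lamb2, the beta chain concentrated in the synaptic cleft, had signals of 1675 on J 1a and 905 on J 1c against 804 on NJ 1a and 1029 on NJ 1d. J 1a was the brightest array, while J 1c lay between the NJ arrays. The difference was 0.43 ± 0.51 (95% interval −0.73 to 1.58), with 1.07 on the full-digit arrays and −0.22 on the rounded ones. It was 0.84 without J 1c and −0.01 without J 1a. Lamb1, the beta chain of the remaining fibre surface, gave 1318 on J 1a and 2003 on J 1c against 1166 on NJ 1a and 1555 on NJ 1d at its brighter probe set, 162263_f_at. The groups overlapped, and the difference was 0.22 ± 0.45, with 0.14 on the full-digit arrays, 0.29 on the rounded ones and −0.07 without J 1c. Its other probe set, 101948_at, gave 514 on J 1a and 241 on J 1c against 303 on NJ 1a and 356 on NJ 1d, with the NJ values inside the J range. Here the difference of 0.08 ± 0.75 was 0.71 on the full-digit arrays and −0.56 on the rounded ones, and it was −0.29 without J 1a and −0.20 without NJ 1a. The difference of Lamb2 from Lamb1 in response was not tested.

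Lamc1, the gamma chain shared by nearly all laminins of muscle, lay higher in J by similar amounts at both probe sets. At 161706_f_at the signals were 1139 on J 1a and 1754 on J 1c against 1030 on NJ 1a and 849 on NJ 1d. The groups did not overlap, but J 1a was close to NJ 1a. The difference was 0.52 ± 0.47 (limma, adjusted p = 0.999), with 0.13 on the full-digit arrays and 0.91 on the rounded ones, and it was 0.22 ± 0.52 without J 1c. At 102404_at the signals were 368 on J 1a and 291 on J 1c against 138 on NJ 1a and 312 on NJ 1d. NJ 1a was low and the other 3 arrays were alike, so the difference of 0.53 ± 0.82 was 1.22 on the full-digit arrays and −0.16 on the rounded ones, and it was −0.17 without NJ 1a. The probe sets thus drew a like mean from different arrays.

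Of the nidogens, Nid1 had signals of 361 on J 1a and 117 on J 1c against 338 on NJ 1a and 169 on NJ 1d, a difference of −0.24 ± 0.81. The full-digit array was the brighter one in both groups, and the difference was 0.05 on the full-digit arrays and −0.53 on the rounded ones. It was 0.29 without J 1c and 0.01 without NJ 1a. Nid2, a second nidogen with partly overlapping roles, was too dim to be tested. Its signals were 19.6 on J 1a and 36.1 on J 1c against 7.32 on NJ 1a and 10.5 on NJ 1d, all of the order of the pseudocount of 32 or below it. Both J values were above both NJ values as deposited, but overlapped after quantile normalisation. Hspg2 had signals of 321 on J 1a and 1211 on J 1c against 601 on NJ 1a and 1727 on NJ 1d. Within each number format J was below NJ, with −0.97 on the full-digit arrays and −0.52 on the rounded ones, and the difference was −0.75 ± 0.78 overall. Without J 1c it was −1.70 ± 0.78 (limma, adjusted p = 0.541), and it was 0.25 without J 1a, while leaving out NJ 1d gave 0.03.

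**Figure D2:**
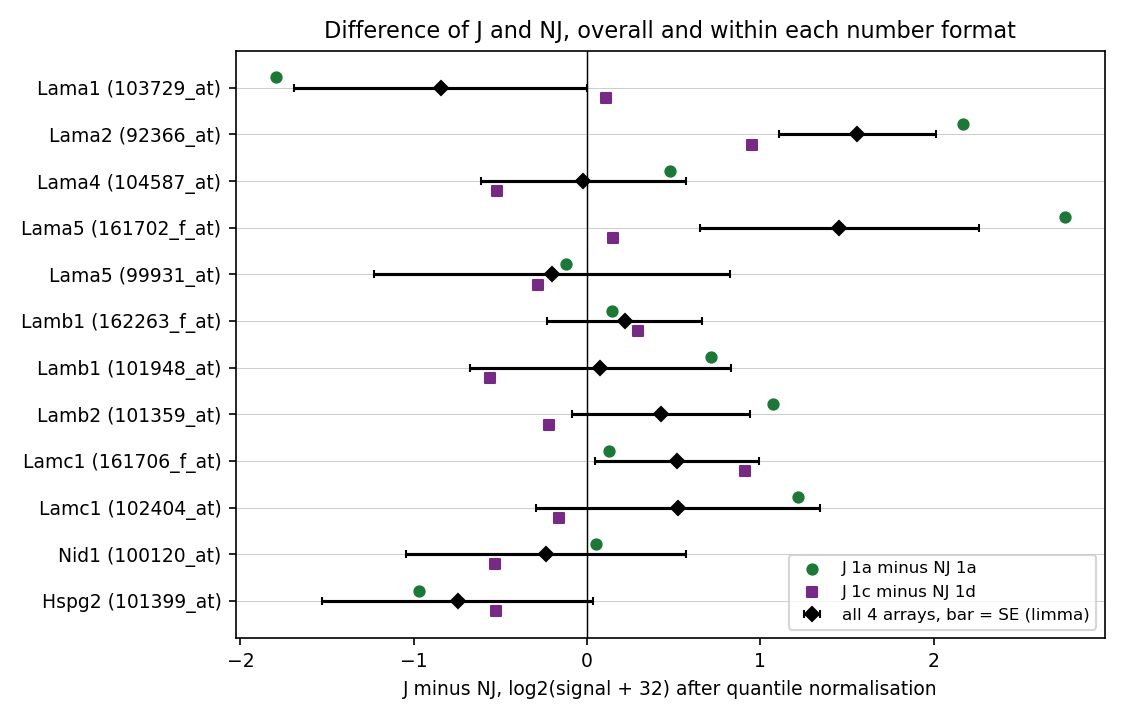
Difference of J and NJ on the log2(signal + 32) scale after quantile normalisation for the 12 tested member probe sets. Diamonds with bars give all 4 arrays and the limma SE, circles J 1a minus NJ 1a and squares J 1c minus NJ 1d; Lama2 is above 0 in both formats (2.17 and 0.95), while Lamb2 has 1.07 in one and −0.22 in the other.

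Within the number formats, 6 of the 12 probe sets had differences of opposite sign on the full-digit and the rounded arrays, beside 50.5% of all probe sets tested. The difference was above 0 in both formats for 4 (Lama2, and the _f_at probe sets of Lama5, Lamb1 and Lamc1), beside 25% of all, and below 0 in both for 2 (Hspg2 and 99931_at of Lama5), beside 24.4% of all. The median over the 12 was 0.31 on the full-digit arrays and −0.19 on the rounded ones. With a term for the number format in the fit, Lama2 had an SE of 0.41 and a limma adjusted p of 0.148. That fit left only 1 residual degree of freedom, so its SE and p lean heavily on the variance trend. The other members tested had adjusted p of at least 0.835 in that fit, in which 0.0429% of all probe sets were called higher and 0.0429% lower. At an unadjusted p under 0.05 that fit gave 1 member (Lama2, higher in J), beside 2.78% of all probe sets higher and 3.18% lower.

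For 2 probe sets the signal differed between the number formats by more than 1 on the log2 scale, and in the same direction, in both groups. Lama5 at 99931_at was brighter on the full-digit array by 2.34 within J and by 2.18 within NJ. Hspg2 ran the other way, with shifts of −1.98 within J and −1.54 within NJ. In both cases each group therefore held 1 bright and 1 dim array, and the SDs within groups were 1.65 and 1.54 for the Lama5 probe set and 1.40 and 1.09 for Hspg2 (J and NJ, n = 2 each). Nid1 (1.07 within J and 0.49 within NJ), 162263_f_at of Lamb1 (−0.56 and −0.41) and Lama1 (−1.95 and −0.04) also had shifts of 1 direction. What else differed between these arrays is not given in the labels.

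With each array left out in turn, 3 probe sets kept a difference above 0 throughout. They are the 3 whose J values exceeded both NJ values, a pattern found in 13.6% of all probe sets tested. That pattern nearly fixes the sign in advance when 1 array is left out. Lama2 ranged from 1.15 to 1.93, 161702_f_at of Lama5 from 0.51 to 2.36 and 161706_f_at of Lamc1 from 0.22 to 0.82. The other 9 took both signs. The median over the members tested was 0.01 without NJ 1a, 0.20 without J 1a, 0.37 without J 1c and 0.38 without NJ 1d. The brightness filter was applied anew each time, and it passed 13 members without NJ 1a and 12 in the other fits. The 3 probe sets of Lama5, Lamb1 and Lamc1 that end in _f_at, and that of Nid2 ending in _s_at, carry suffixes the array's maker gives to probe sets whose probes may match further transcripts.

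**Figure D3:**
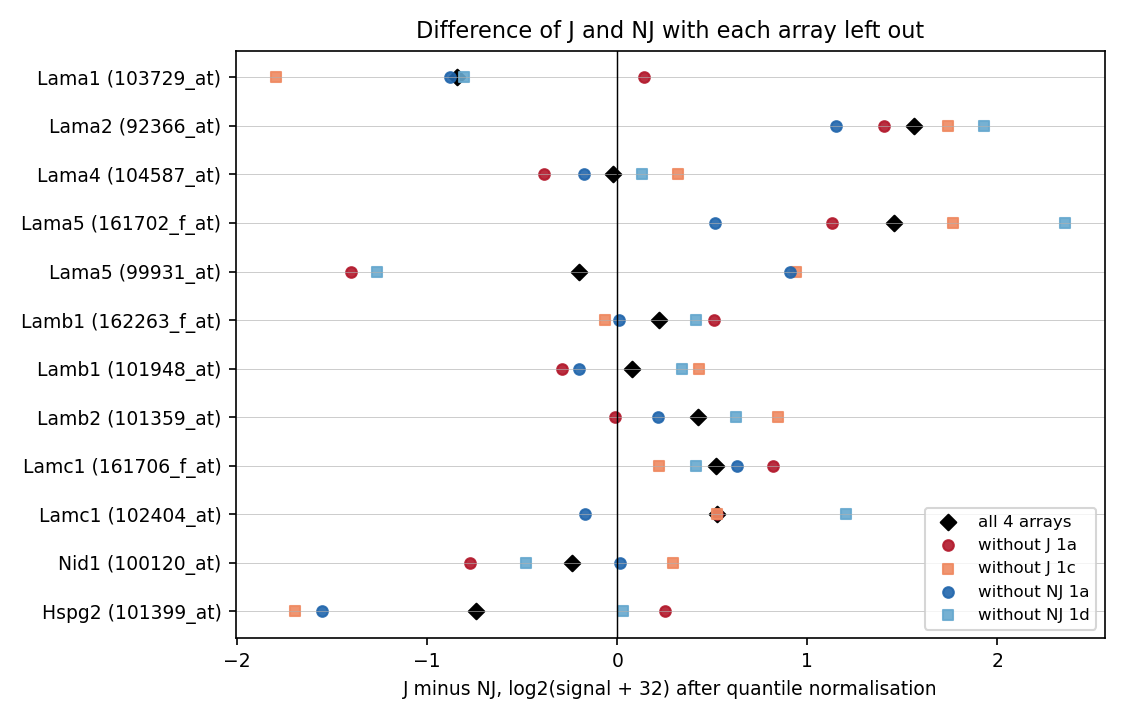
Difference of J and NJ on the log2(signal + 32) scale for the 12 tested probe sets with all 4 arrays (diamonds) and with each array left out. All 5 points of Lama2 lie between 1.15 and 1.93, whereas those of Hspg2 run from −1.70 to 0.25.

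Other proteins of the basement membrane and its neighbourhood that bind laminin networks or lie beside them were taken from a list of 25 genes, of which 20 were on the array and 17 tested at their brightest probe set. Of these, 10 differences were above 0 and 7 below, and the median was 0.21 beside −0.01 over all 6773 genes tested, of which 49% were higher. In limma 0 passed, and 2 (Smoc2 and Col18a1) had an unadjusted p under 0.05, both higher in J, beside 1.17% of genes higher and 0.842% lower. Smoc2, a calcium-binding matrix protein, gave signals of 2480 and 1551 on the J arrays and 793 and 571 on the NJ arrays and differed by 1.49 ± 0.49. Col18a1, the collagen from which endostatin is cut, gave 1216 and 789 on the J arrays and 276 and 310.1 on the NJ arrays and differed by 1.61 ± 0.64. Both were above 0 in each number format, as was Dcn, the matrix proteoglycan decorin, at 0.67 ± 0.45. After normalisation the J values exceeded both NJ values for 4 genes (Smoc2, Col18a1, Dcn and Col4a2), beside 13.4% of genes, and were under both for 1 (Tinagl1, −0.56 ± 0.77), beside 13.1%. As deposited, the signals of Dcn and Tinagl1 overlapped. Before normalisation Dcn was lower in J on the rounded arrays, with 25304 on J 1c against 36133 on NJ 1d. On the full-digit arrays it was higher, with 82874 on J 1a against 42425 on NJ 1a. The collagen IV chains Col4a1 and Col4a2, the partners of the laminin sheet, differed by 0.21 ± 0.37 and 0.34 ± 0.36; these chains and Tinagl1 were singled out after their values were seen.

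The receptors that hold laminin on the cell, with the dystrophin and sarcoglycan proteins behind them, were on the array for 18 of 21 listed genes, and all 18 were tested. They divided evenly, with 9 higher, 9 lower and a median of −0.01 (−0.11 on the deposited scale and −0.17 with each array centred on its median). In limma 0 passed, also at an unadjusted p under 0.05. After normalisation both J arrays were above both NJ arrays for 2 of the 18 (Sgce and Itga7), beside 13.4% of genes, and below them for 5 (Sdc3, Itga3, Dag1, Itgb4 and Itga6), beside 13.1%. Of these, Sdc3, Itgb4 and Itga6 overlapped as deposited. The epsilon sarcoglycan Sgce differed by 1.02 ± 0.72, the syndecan Sdc3 by −0.97 ± 0.82 and the laminin-binding integrin chain Itga3 by −0.68 ± 0.69. Dystroglycan (Dag1), the receptor of alpha2 laminin, gave 3524 and 4786 on the J arrays and 5022 and 5735 on the NJ arrays and differed by −0.34 ± 0.35, and Itga7, the integrin chain of muscle fibres, by 0.41 ± 0.42. The integrin chains Itgb4 and Itga6 differed by −0.62 ± 0.78 and −0.27 ± 0.58. Dag1, Itga7, Itgb4 and Itga6 were named after their values were seen. Of 10 enzymes that put or extend sugars on dystroglycan or its surroundings, 2 were tested, Pomgnt1 at 0.27 ± 0.76 and B4galnt2 at 0.24 ± 0.87.

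**Figure D4:**
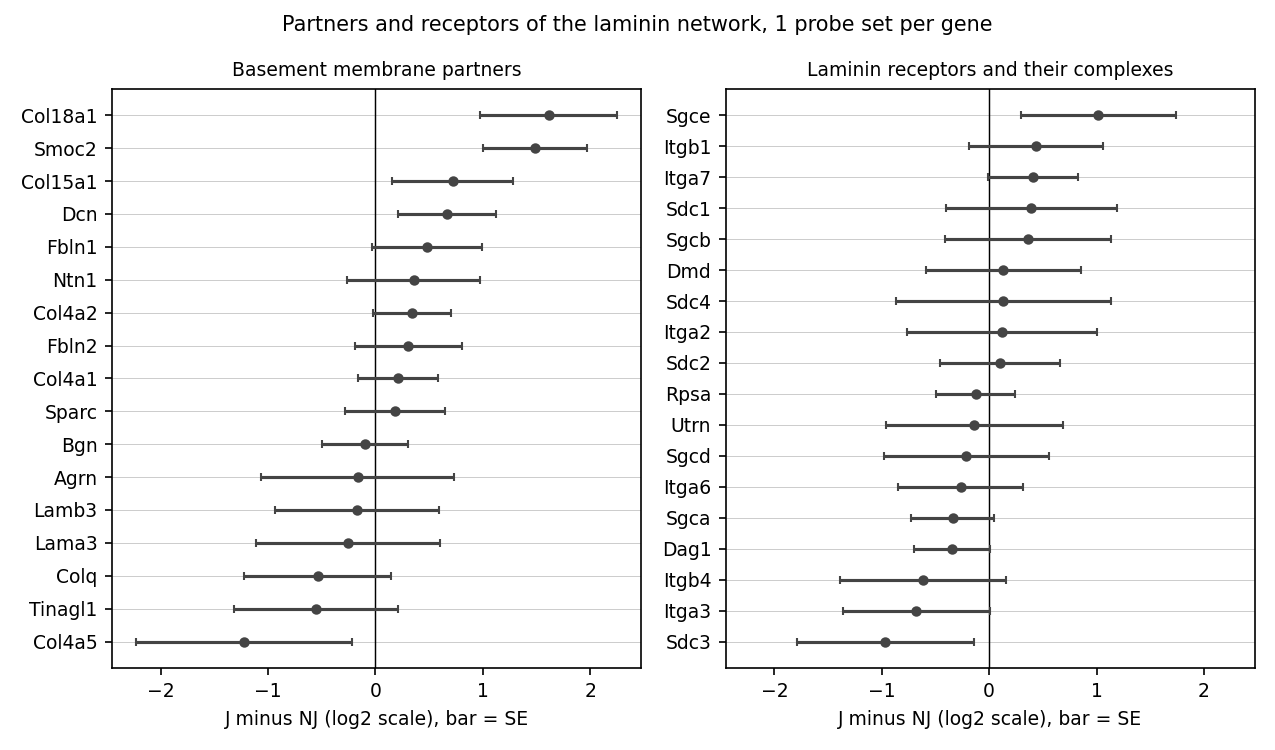
Difference of J and NJ (log2 scale, bars are limma SE) for the basement membrane partners on the left and the laminin receptors with their complexes on the right, at 1 probe set per gene. Smoc2 (1.49) and Col18a1 (1.61) stand at the top of the partners, and the receptors lie on both sides of 0 with a median of −0.01.

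Markers of other cells that make laminin did not lie on one side, and only the fibroblast and adipocyte medians kept their sign with each array left out and in both number formats. Fibroblast markers were higher in J for 12 of 15, with a median of 0.37 (0.20 to 0.76 with an array left out), and their summed deposited signal was 52401 and 120651 for J and 58687 and 68435 for NJ. The periostin gene Postn led them at 3.43 ± 0.81, with 1311 and 700 on the J arrays and 43.3 and 75.2 on the NJ arrays, while Serpinf1 was lowest at −1.33 ± 0.57. Dcn and Fbln1 are in both this list and that of the basement membrane partners. Dcn alone gave 25304 and 82874 of the fibroblast sums for J and 36133 and 42425 of those for NJ. Smooth muscle and pericyte markers were higher for 9 of 10, from Notch3 at −0.98 ± 0.75 to Cnn1 at 0.80 ± 0.77, with sums of 13146 and 16082 for J and 10976 and 13378 for NJ. Their median of 0.41 was −0.16 without NJ 1d, 0.02 without J 1a and 0.72 without J 1c. Of the 9 endothelial markers tested 3 were higher, from Kdr at −1.40 ± 0.96 to Vwf at 1.87 ± 0.72, with sums of 10021 and 14007 for J and 11198 and 11708 for NJ. Their median of −0.11 was 0.27 without J 1c and 0.11 without NJ 1a. Of the 8 Schwann cell markers tested 3 were higher, from S100b at −1.18 ± 0.81 to Apod at 2.09 ± 0.84, with sums of 4743 and 5539 for J and 3122 and 6315 for NJ. Their median of −0.23 was −0.47 on the full-digit arrays and 0.62 on the rounded ones, and it was 0.26 without J 1a and 0.10 without NJ 1a.

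Immune cell markers were higher for 6 of 9, from Fcer1g at −2.55 ± 0.82 to Irf8 at 2.56 ± 0.74, with a median of 0.05 that was −0.11 without NJ 1a. Adipocyte markers were higher for 1 of 4, from Lpl at −0.96 ± 0.43 to Adipoq at 1.90 ± 0.59, with a median of −0.24 (−0.44 to −0.04 with an array left out). Neuron and axon markers were higher for 2 of 7, from Nefl at −0.67 ± 0.87 to Snap25 at 1.70 ± 1.07. Their median of −0.15 was 0.58 on the full-digit arrays and −0.35 on the rounded ones, and it was 0.23 without J 1c and 0.14 without NJ 1d. Muscle fibre markers were higher for 3 of 7, from Myh4 at −1.13 ± 0.73 to Des at 0.30 ± 0.38, with a median of −0.07 that was −0.58 on the deposited scale and 0.06 when either J 1a or NJ 1d was left out. Des is in both the muscle fibre list and the smooth muscle and pericyte list. No marker was at 0 on any array. The part of these cells in the higher Lama2 signal of J was not tested.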

How the data were processed

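The authors deposited a linear intensity for every probe set on each array; the software behind it is not given in the sources used here. After trimming 2% at each end, the mean of each deposited column was 800.5 to 800.6, so the arrays had been scaled to a common level. Gene names came from the platform's table. Of 12422 probe sets that are not controls, 10833 had 1 symbol, 396 several and 1193 none.

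Intensities were taken as log2(value + 32) and, since column medians ranged from 8.29 to 8.67, quantile normalised with the 66 controls, which were then left out. Probe sets with a mean over all 4 arrays above the 25th percentile (9316) were tested with limma 3.58.1 in R 4.3.3 (eBayes with trend, leaving 2 residual degrees of freedom) and adjusted by Benjamini-Hochberg. limma draws each variance toward the trend, so an SE can exceed what 2 arrays show. Precision is limited by the number of arrays.

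The members and lists were chosen with earlier results of these data known. Every member is named, with the 3 genes of smallest unadjusted p in each partner list and the extremes of marker lists; exceptions are stated. Alternatives were the scale, pseudocount, filter, trend, a number-format term and leaving out arrays. Plots were made in Python 3.11.15 with matplotlib 3.10.9.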

Additional observations from a re-analysis of the deposited data

How the results depend on the processing

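No member passed at an adjusted p under 0.05 in any of the 12 alternative fits, and the member values kept their sign in 128 cases and took the other in 14, all of the latter with an array left out. The filter, trend and number-format term leave each difference as it was, so those fits could not turn a sign. No paired analysis was possible because J and NJ share only the replicate label 1a. The number-format term groups J 1a with NJ 1a and J 1c with NJ 1d. It does so by the format of the values and not by a pairing in the labels. With an array left out, Lama1 ranged from −1.80 to 0.14, Lama4 from −0.39 to 0.32, 99931_at of Lama5 from −1.40 to 0.94, 162263_f_at of Lamb1 from −0.067 to 0.51 and 101948_at from −0.29 to 0.43, Lamb2 from −0.0099 to 0.84, 102404_at of Lamc1 from −0.17 to 1.20, Nid1 from −0.78 to 0.29 and Hspg2 from −1.70 to 0.25. The count of all probe sets called in limma was 0 with all arrays (117 higher and 82 lower at an unadjusted p under 0.05), 0 to 4 with an array left out (4 without J 1a) and 8 with the number-format term. The median over the members tested was 0.12 with median centring, 0.18 on the deposited scale, 0.14 and 0.15 with pseudocounts of 100 and 1, 0.19 with no filter and 0.22 at 1 probe set per gene. For the receptors the median was −0.01, but −0.11 on the deposited scale, −0.17 with median centring and −0.21 to −0.12 with an array left out; for the partners it was 0.04 to 0.43 with an array left out.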
